A study of Mus musculus with 3 samples.

Results

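Kcnj8, Abcc9, Casq2, Cacna1c, Cacna1h, Ano1, Kcnma1 and Kcna5 encode ion channel subunits and a calcium store protein of the contractile cells of vessel walls. These 8 genes were taken by symbol from a list of channel and calcium handling genes, and all 8 were found among the 32285 genes of the count matrices. Their levels are described by cell class and by age in 3 single-cell libraries of mouse retina enriched for vascular cells.

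Mural cells, the pericytes of capillaries and the smooth muscle cells of arterioles, set vessel tone through membrane potential and cytosolic calcium. Opening of potassium channels hyperpolarizes the cell, closes voltage-gated calcium channels and relaxes it, whereas calcium-activated chloride channels depolarize it. Kcnj8 (the pore Kir6.1) and Abcc9 (the sulfonylurea receptor SUR2) form the vascular ATP-sensitive potassium channel, and in brain and retina both are widely used to recognize pericytes.

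The mice were of the C57BL/6JRj strain and were 3 months (young), 12 months (adult) or 23 months old (old), with no treatment or allele named for any group. Each age gave 1 library of 3′ single-cell RNA-seq, made from the pooled retinas of a mouse pair after dissociation and enrichment with beads against CD31, a surface protein of endothelial cells. With 1 library per age no difference between ages could be tested against replicates. All intervals are 95% intervals for counting error alone, and differences between libraries cannot be told apart from differences between preparations.

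After filters, 1705 young, 1957 adult and 1701 old cells remained, with a median of 5964 to 6353 unique molecular identifiers (UMIs, counted RNA molecules) per cell, and 2 barcodes were shared between the adult and old libraries. Clusters were made without the 8 genes and without 47 related genes, and were named from marker genes only. The pericyte-like class held 171, 131 and 101 cells (young, adult, old), the smooth muscle-like class 38, 37 and 37, and the endothelial-like class 451, 431 and 408. A further 309, 250 and 224 droplets carried both endothelial and mural markers and were kept apart as mixed endothelial-mural droplets. The class labels held against their markers, with limits: all 8 pericyte markers were detected in the pericyte-like class at every age, yet the 10 endothelial markers there stood at 7.11, 7.47 and 9.07% of their endothelial-like level. In the smooth muscle-like class the 8 pericyte markers stood at 31.8, 31.9 and 16.8% of their pericyte-like level. Conversely, the 10 smooth muscle markers in the pericyte-like class stood at 12.0, 14.6 and 13.2% of their smooth muscle-like level.

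Levels are given as CPM, the UMIs of a gene scaled to a common total for each class and library. They count 3′ ends and are compared between classes and ages for the same gene, not between genes.

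Kcnj8 and Abcc9 lie next to each other on mouse chromosome 6 (GRCm38), both on the minus strand. Kcnj8 spans positions 142564837 to 142571614, Abcc9 spans 142587862 to 142702315, and the 16247 bases between them hold no gene of GENCODE M21. Casq2, the luminal calcium buffer calsequestrin 2, spans 102086415 to 102146514 on chromosome 3, plus strand. The other members lie at chr6:118587240-119196418 (Cacna1c), chr6:126532551-126535412 (Kcna5), chr7:144588549-144751974 (Ano1), chr14:23289431-24014491 (Kcnma1) and chr17:25374285-25433783 (Cacna1h), all on the minus strand. The coding genes Dcp1b and Tpsg1 overlap the spans of Cacna1c and Cacna1h on the opposite strand. RefSeq promoter windows (GRCm38.p6) were matched for 7 of the 8 genes, all but Cacna1h. The 250 bases before the annotated start are shown for the neighbouring pair, whose RNA separated pericyte-like from smooth muscle-like cells, and for Casq2, which was found in both. They read 5′ to 3′, with matches to the motifs searched in capitals.
Kcnj8, chr6:142571615-142571864, minus strand: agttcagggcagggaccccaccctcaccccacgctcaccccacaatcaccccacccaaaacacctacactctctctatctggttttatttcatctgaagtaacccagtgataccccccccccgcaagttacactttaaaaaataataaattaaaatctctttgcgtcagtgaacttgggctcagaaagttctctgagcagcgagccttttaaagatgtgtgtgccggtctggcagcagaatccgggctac
Abcc9, chr6:142702275-142702524, minus strand: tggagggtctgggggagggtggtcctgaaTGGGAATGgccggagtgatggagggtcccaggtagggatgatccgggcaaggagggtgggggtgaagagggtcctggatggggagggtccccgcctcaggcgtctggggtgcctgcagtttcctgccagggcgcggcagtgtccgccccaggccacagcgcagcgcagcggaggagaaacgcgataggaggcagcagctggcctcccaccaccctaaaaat
Casq2, chr3:102086165-102086414, plus strand: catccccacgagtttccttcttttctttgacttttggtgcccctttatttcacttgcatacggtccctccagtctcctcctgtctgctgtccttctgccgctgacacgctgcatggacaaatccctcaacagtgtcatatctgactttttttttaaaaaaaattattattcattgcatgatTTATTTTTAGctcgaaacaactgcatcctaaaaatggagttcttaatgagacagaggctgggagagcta

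Both strands were searched for TGGGAA (the core bound by RBPJ, the Notch effector), CATTCC (bound by TEAD factors), the CArG box of serum response factor and the MEF2 site. The Abcc9 window held TGGGAA overlapping CATTCC, at positions -221 to -216 and -219 to -214 relative to the start. The Kcna5 window held the same overlap (CATTCC at -128 to -123 and TGGGAA at -126 to -121) and TGGGAA again at -164 to -159, and the Ano1 window held TGGGAA at -244 to -239. A MEF2 match was found in the Casq2 window at -69 to -60, and no match to any of the 4 in the Kcnj8 window. Of all 32851 windows of this length, 21.6% held TGGGAA, 12.6% CATTCC, 2.92% a MEF2 match and 1.47% a CArG match. The neighbouring pair therefore did not share any of these motifs in these windows.

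Among the classes, the Kcnj8 level was highest in pericyte-like cells, which held 25.9% of its UMIs, while the more numerous and deeper mixed endothelial-mural droplets held 67.7%. The young, adult and old libraries held 1291, 1039 and 1537 CPM, from 913, 584 and 756 UMIs. In the smooth muscle-like class 4, 2 and 1 UMIs were counted, or 13.0, 6.47 and 2.78 CPM. The smooth muscle-like level was thus 0.0101 (0.00274 to 0.0259) of the pericyte-like level in young cells, 0.00622 (0.000752 to 0.0226) in adult cells and 0.00181 (4.58e-05 to 0.0101) in old cells. Endothelial-like cells held 17.0, 20.4 and 14.5 CPM, which made the pericyte-like level 76.1 (58.1 to 102), 50.9 (39.6 to 66.3) and 106 (80.0 to 143) times higher.

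Abcc9 followed the same order of classes. Pericyte-like cells held 2909, 2433 and 2542 CPM, smooth muscle-like cells 9.75, 29.1 and 13.9 CPM, and endothelial-like cells 90.3, 89.7 and 62.5 CPM. The pericyte-like level was 32.2 (28.5 to 36.5), 27.1 (23.9 to 30.8) and 40.7 (35.3 to 47.0) times the endothelial-like one. Müller glia-like, rod-like, cone-like and bipolar-like cells stayed between 1.03 and 9.84 CPM. The intervals of the pericyte-like class lay above those of all other classes at each age for both channel subunits.

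At single-cell level, 89.5% of young, 72.5% of adult and 82.2% of old pericyte-like cells carried UMIs of both subunits, and 7, 7 and 4 cells carried neither. Kcnj8 was seen in 90.1, 77.1 and 83.2% of pericyte-like cells against 0.602, 0 and 2.12% of rod-like cells, a class that should lack it. Median depths were 4011, 3950 and 4674 UMIs in pericyte-like and 2287, 2423 and 2152.5 in rod-like cells. With cells thinned to 2000 UMIs, leaving out 18, 22 and 16 shallower pericyte-like and 61, 105 and 94 shallower rod-like cells, the pericyte-like shares were 85.0% (78.3 to 90.2), 70.6% (61.2 to 79.0) and 76.5% (66.0 to 85.0), and the young and adult intervals overlapped narrowly. For Abcc9 the thinned shares were 93.5, 88.1 and 94.1%, with overlapping intervals. Among smooth muscle-like cells no young or old cell carried both subunits and 1 adult cell did.

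Endothelial-like cells carried some of both RNAs, together with pericyte markers. The 8 pericyte markers there stood at 6.13, 6.29 and 3.89% of their pericyte-like level, against 2.73 to 3.38% in Müller glia-like and 5.11, 5.49 and 4.70% in rod-like cells. After leaving out every endothelial-like cell with a UMI of a mural marker, 116, 121 and 90 cells remained, and these held 0 Kcnj8 UMIs in each library (3 counts would make 5.46, 6.27 and 5.90 CPM). Abcc9 had 5, 1 and 5 UMIs in the same cells and Casq2 had 0 in each. This filter removes cells with mural RNA of any source, and the cells kept were shallower on average than the full class. The source of the RNA was not tested.

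**Figure D1:**
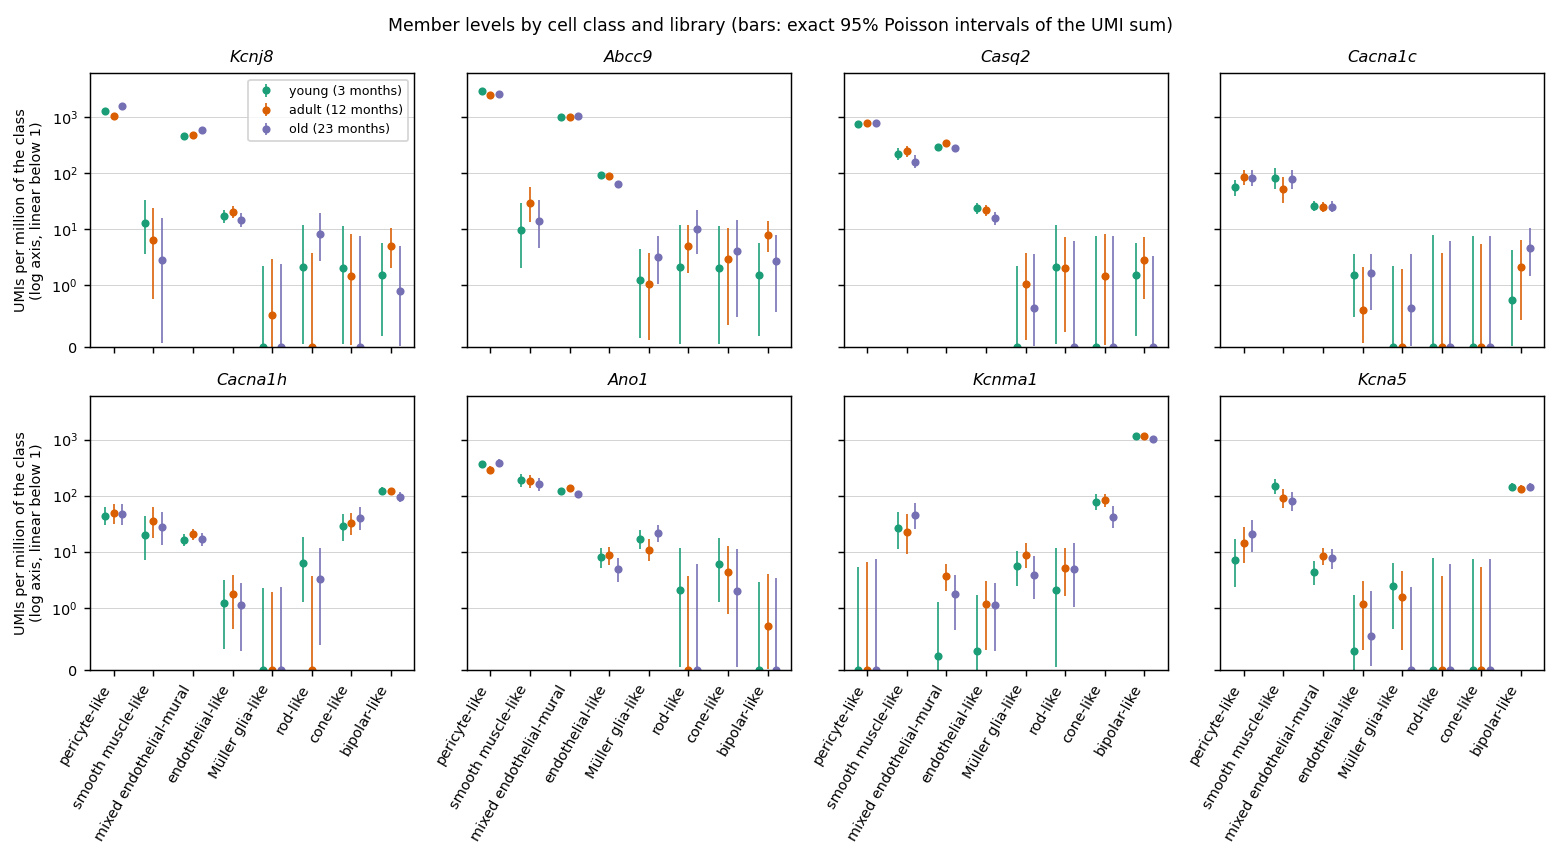
Each panel shows 1 gene, with the cell classes on the horizontal axis and the level in CPM on a logarithmic vertical axis that is linear below 1. Points are the young, adult and old libraries and bars are exact Poisson intervals. Kcnj8 and Abcc9 peak in pericyte-like cells and fall near background in smooth muscle-like cells, Casq2 and Ano1 are high in both mural classes, and Kcnma1 is at 0 in pericyte-like cells and above 1000 in bipolar-like cells.

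Both subunits were lower in the adult than in the young library, and they differed from each other in the old library. In pericyte-like cells Kcnj8 was lower in the adult than in the young library (ratio 0.805, 0.724 to 0.894) and higher in the old than in the young (1.19, 1.08 to 1.31). Abcc9 was lower than young in both the adult (0.836, 0.780 to 0.896) and the old library (0.874, 0.814 to 0.938). With called doublets kept, or with mixed clusters counted as pericyte-like, the old over young Abcc9 ratio was nearer to no change. In the 33 young and 12 old pericyte-like cells free of endothelial marker UMIs the Kcnj8 ratio was 0.861, from 122 and 32 UMIs. So few UMIs do not set this ratio apart from 1 or from 1.19. The sum of both subunits came to 0.971 (0.917 to 1.03) of the young level in the old library. None of the 6 members with at least 50 UMIs over the old and young pericyte-like cells passed 1.5-fold in this comparison, against 11.6% of all 3894 genes tested. The median log2 ratio of the 6 was 0.07, equal to the median over all genes of 0.07.

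The number of Abcc9 UMIs per Kcnj8 UMI does not depend on the class total. In pericyte-like cells it was 2.25 (2.08 to 2.44), 2.34 (2.12 to 2.58) and 1.65 (1.51 to 1.81) in young, adult and old order. The old library was therefore below both others, whose intervals overlapped each other. In the mixed endothelial-mural droplets, which share no cell with the pericyte-like class but come from the same 3 libraries, the values were 2.20 (2.09 to 2.32), 2.12 (2.0 to 2.24) and 1.73 (1.64 to 1.83). There the old library stood lowest again, and Kcnj8 rose from 456 and 475 CPM to 595 CPM (old over young 1.31, 1.23 to 1.39) while Abcc9 held 1003, 1006 and 1032 CPM (1.03, 0.984 to 1.08). Other members fell against Kcnj8 in these droplets too, Casq2 from 0.640 and 0.709 to 0.461 (0.426 to 0.498) UMIs per Kcnj8 UMI and Ano1 from 0.269 and 0.282 to 0.179 (0.160 to 0.201). In pericyte-like cells Casq2 per Kcnj8 was 0.581, 0.757 and 0.499, and Ano1 per Kcnj8 was 0.286, 0.279 and 0.249. For Abcc9, endothelial-like cells had 5.32 (3.99 to 7.21), 4.39 (3.37 to 5.79) and 4.30 (3.18 to 5.92), with overlapping intervals. Pericyte-like cells free of endothelial marker UMIs numbered 33, 25 and 12. In these Abcc9 per Kcnj8 was 2.20, 4.52 and 2.38 from 122, 27 and 32 Kcnj8 UMIs. The old value was not below the young one, but so few UMIs do not set it apart from the old value of the full class.

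**Figure D2:**
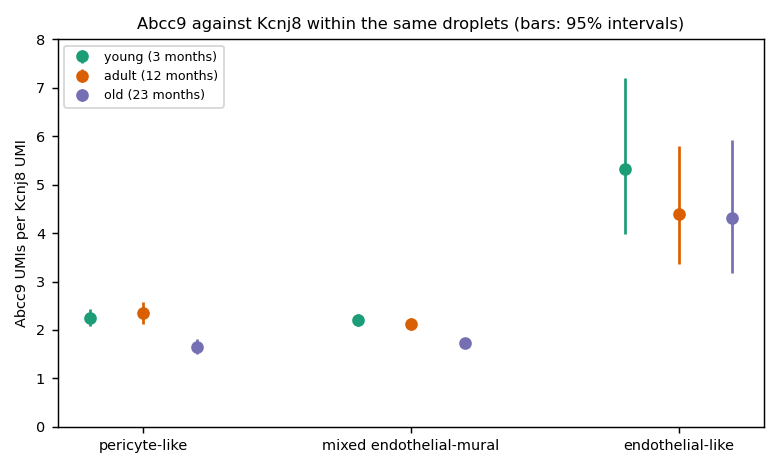
Abcc9 UMIs per Kcnj8 UMI on a linear vertical axis starting at 0, by library, in pericyte-like cells, mixed endothelial-mural droplets and endothelial-like cells. Bars are counting intervals. The old library lies at 1.65 and 1.73 in the first and second groups, below the young and adult libraries at 2.12 to 2.34.

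Casq2 was high in both mural classes. Pericyte-like cells held 749, 787 and 767 CPM and smooth muscle-like cells 218, 246 and 159 CPM, with 15.6 to 23.6 CPM in endothelial-like cells. The pericyte-like level did not differ between ages beyond counting error (old over young 1.02, 0.894 to 1.17). In the smooth muscle-like class the old over young ratio was 0.729 (0.503 to 1.05) and the old over adult ratio 0.646 (0.450 to 0.923). The old over young ratio was lower still without cells carrying endothelial markers and with the class from the markers of each cell. The pericyte markers in the smooth muscle-like class fell from 31.8 to 16.8% of their pericyte-like level between the same young and old libraries, and their part in the Casq2 values was not tested.

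Ano1, the calcium-activated chloride channel TMEM16A, was likewise shared by both mural classes. Its level was 369, 290 and 382 CPM in pericyte-like cells and 189, 181 and 159 CPM in smooth muscle-like cells, a ratio of smooth muscle-like to pericyte-like of 0.511 (0.378 to 0.681), 0.624 (0.452 to 0.850) and 0.415 (0.303 to 0.561). Among pericyte-like cells the adult library was lower than the young (0.786, 0.642 to 0.959), and the old was not distinguishable from the young (1.04, 0.854 to 1.25). Müller glia-like cells also held Ano1, at 16.9, 10.8 and 21.7 CPM. Within that class the small cluster led by Utp14b, Adam23 and Msi1 had 68.9, 30.2 and 67.4 CPM from 11, 5 and 12 UMIs, and the main cluster led by Rlbp1 had 11.4, 9.0 and 15.8 CPM.

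The voltage-gated calcium channel genes were sparse. Cacna1c, the pore of the L-type channel Cav1.2, is the main calcium entry route of smooth muscle. It had 55.2, 83.6 and 81.3 CPM in pericyte-like cells (39, 47 and 40 UMIs) and 81.3, 51.7 and 78.0 CPM in smooth muscle-like cells (25, 16 and 28 UMIs). The order of the mural classes changed between libraries, with ratios of smooth muscle-like to pericyte-like of 1.47 (0.855 to 2.50), 0.618 (0.327 to 1.11) and 0.959 (0.570 to 1.59), so no difference between them was detectable at this depth. Rod-like and cone-like cells held 0 UMIs of Cacna1c in every library. Cacna1c was the single member past 1.5-fold between adult and young pericyte-like cells (1.52, 0.971 to 2.38), where 9.19% of 4049 genes were past it, and its interval included 1.

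Cacna1h, the T-type channel Cav3.2, was found in mural cells and in neurons. Pericyte-like cells held 43.8, 48.1 and 46.8 CPM, smooth muscle-like cells 19.5, 35.6 and 27.8 CPM, cone-like cells 28.5, 32.2 and 40.2 CPM, and bipolar-like cells 121, 120 and 94.5 CPM. The bipolar-like class, which held 50% of all Cacna1h UMIs and 10.7% of the cells, was above the pericyte-like class beyond counting error at each age. Cone-like, pericyte-like and smooth muscle-like intervals overlapped in all 3 libraries. Rod-like cells had 3, 0 and 2 UMIs and Müller glia-like cells 0 in each.

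Kcnma1, the pore of the large-conductance calcium-activated potassium (BK) channel, had 0 UMIs in pericyte-like cells in all 3 libraries. A count of 3 would have made 4.24, 5.34 and 6.1 CPM there, the limit that this depth sets. Smooth muscle-like cells held 8, 7 and 16 UMIs, or 26.0 (11.2 to 51.2), 22.6 (9.10 to 46.6) and 44.6 (25.5 to 72.4) CPM. These point values were 6.13, 4.24 and 7.30 times the pericyte-like level of 3 counts, leaving aside the counting error of the smooth muscle-like sums. With 2000 UMIs per cell, 2.63, 2.70 and 5.41% of smooth muscle-like cells carried a Kcnma1 UMI (13.2, 16.2 and 29.7% unthinned), against 0.952, 1.85 and 1.41% of rod-like cells, and the intervals of the classes overlapped at each age. The thinned rod-like shares rest on 105, 216 and 142 cells, and no smooth muscle-like cell was too shallow. Kcnmb1, the accessory β1 subunit of the BK channel, was present in both mural classes, at 59.4, 101 and 112 CPM in pericyte-like and 127, 113 and 145 CPM in smooth muscle-like cells.

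Kcna5, the delayed-rectifier channel Kv1.5, was the member higher in smooth muscle-like than in pericyte-like cells beyond counting error with UMIs in both. Smooth muscle-like cells held 146, 90.5 and 80.8 CPM and pericyte-like cells 7.07, 14.2 and 20.3 CPM, so the smooth muscle-like level was 20.7 (8.24 to 66.8), 6.36 (2.82 to 16.1) and 3.97 (1.88 to 9.13) times higher. Smooth muscle markers in the pericyte-like class stood at 12.0, 14.6 and 13.2% of their smooth muscle-like level, and their part in these ratios was not tested. Kcna5 was the single member of 4 tested that passed 1.5-fold between old and young smooth muscle-like cells (0.552, 0.334 to 0.900, from 29 and 45 UMIs), where 14.0% of 1975 genes were past it, 9.06% upward and 4.91% downward. The median log2 ratio of the 4 was -0.35, against 0.08 over all genes. The adult library was already low (0.619, 0.372 to 1.01, from 28 UMIs). In 14 young and 5 old smooth muscle-like cells with no endothelial marker UMI the ratio was 1.09. This ratio is given without an interval and rests on few cells. The 10 smooth muscle markers summed to 31860, 38231 and 40020 CPM in this class at the 3 ages. In the mixed endothelial-mural droplets Kcna5 was lowest in the young library, at 4.29, 8.28 and 7.58 CPM from 19, 32 and 26 UMIs (adult over young 1.93, 1.06 to 3.6; old over young 1.77, 0.940 to 3.37). Within these droplets, Kcna5 was at 18.2 CPM in the cluster led by Gkn3 and Olfr558 and at 3.01 CPM in the one led by Vtn and Itih5 besides Kcnj8 and Abcc9, over the 3 libraries together.

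**Figure D3:**
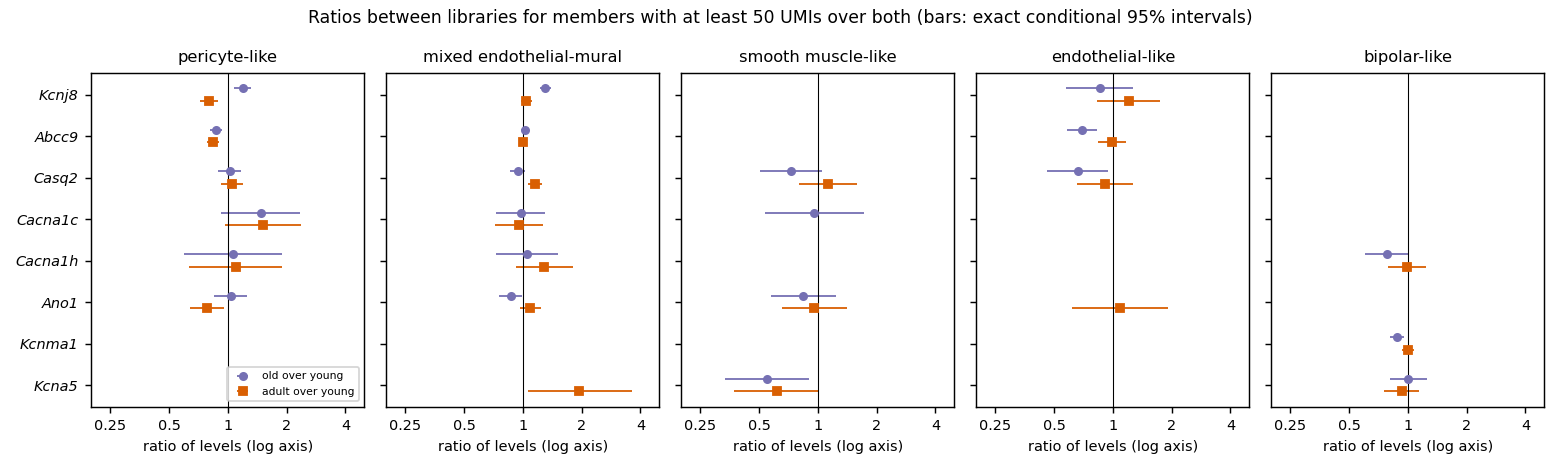
Ratios of levels on a logarithmic horizontal axis for old over young (circles) and adult over young (squares) in 5 classes, for members with at least 50 UMIs over both libraries, with exact conditional intervals. In pericyte-like cells Kcnj8 lies above 1 in the old and below 1 in the adult library, and in smooth muscle-like cells Kcna5 lies below 1.

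Summed over the 8 members, the pericyte-like level was 5425, 4695 and 5376 CPM, so the adult library stood lowest (adult over young 0.865, 0.823 to 0.910; old over young 0.991, 0.943 to 1.04). The smooth muscle-like sum was 702, 663 and 565 CPM, with an old over young ratio of 0.805 (0.661 to 0.980). In the same class the pericyte markers stood at 31.8, 31.9 and 16.8% of their pericyte-like level, and their part in the sum was not tested. In endothelial-like cells Abcc9 (0.692, 0.580 to 0.825) and Casq2 (0.661, 0.461 to 0.942) were lower in the old than in the young library, as were the pericyte markers given above (6.13 and 3.89%). Casq2 was the 1 of 3 tested members past 1.5-fold there, against 7.96% of 9002 genes (4.83% upward, 3.13% downward). In endothelial-like cells free of mural marker UMIs the Abcc9 ratio was 1.08, from 5 UMIs in each library. With classes taken from the markers of each cell the Casq2 ratio was 1.18, given without an interval. The part of the pericyte markers in these ratios was not tested.

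Outside the vessel wall, most UMIs of Kcnma1 and Kcna5 came from bipolar-like cells. The bipolar-like class, interneurons between photoreceptors and ganglion cells, held 88.2% of Kcnma1 UMIs and 68.8% of Kcna5 UMIs. Kcnma1 stood at 1165, 1171 and 1026 CPM (old over young 0.881, 0.815 to 0.952) and Kcna5 at 143, 133 and 144 CPM (1.01, 0.810 to 1.25). None of the 3 members tested in this class passed 1.5-fold between old and young, against 8.37% of 6354 genes. The 18, 17 and 16 amacrine-like cells held Kcnma1 at 544, 1261 and 1071 CPM, a level like the bipolar-like one in the adult and old libraries. Cone-like cells held Kcnma1 at 77.3, 81.9 and 42.2 CPM, with the old library lower (0.546, 0.305 to 0.955, from 21 and 38 UMIs).

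The bipolar-like clusters differed in these channels. Cacna1h had 0 UMIs in each library in the cluster of 204 cells led by Pcp2 and Pcp4, which also had Prkca, a rod bipolar cell gene, among its leading genes, against 402, 294 and 311 CPM in the cluster led by Grik1 and Kcnip4. Clusters led by Kcnb2 and Lrp1b (271, 276 and 232 CPM), by Cck and Reln (161, 199 and 111 CPM) and by Slit2 and Gsg1 (156, 219 and 224 CPM) also carried it. Kcnma1 was present in the Pcp2-led cluster at 1233, 1156 and 1045 CPM, and was lowest in the Slit2 and Gsg1-led cluster, at 169, 229 and 51.7 CPM from 13, 23 and 3 UMIs. Kcna5 was found in 6 of the 7 clusters in at least 2 libraries; in the Slit2 and Gsg1-led cluster it was seen in the old library alone, with 7 UMIs. The cluster led by Gm45159 and Trpm1, with Prkca as well, had 2, 0 and 0 Cacna1h UMIs and the highest Kcnma1 level in each library (2125, 1808 and 2081 CPM).

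**Figure D4:**
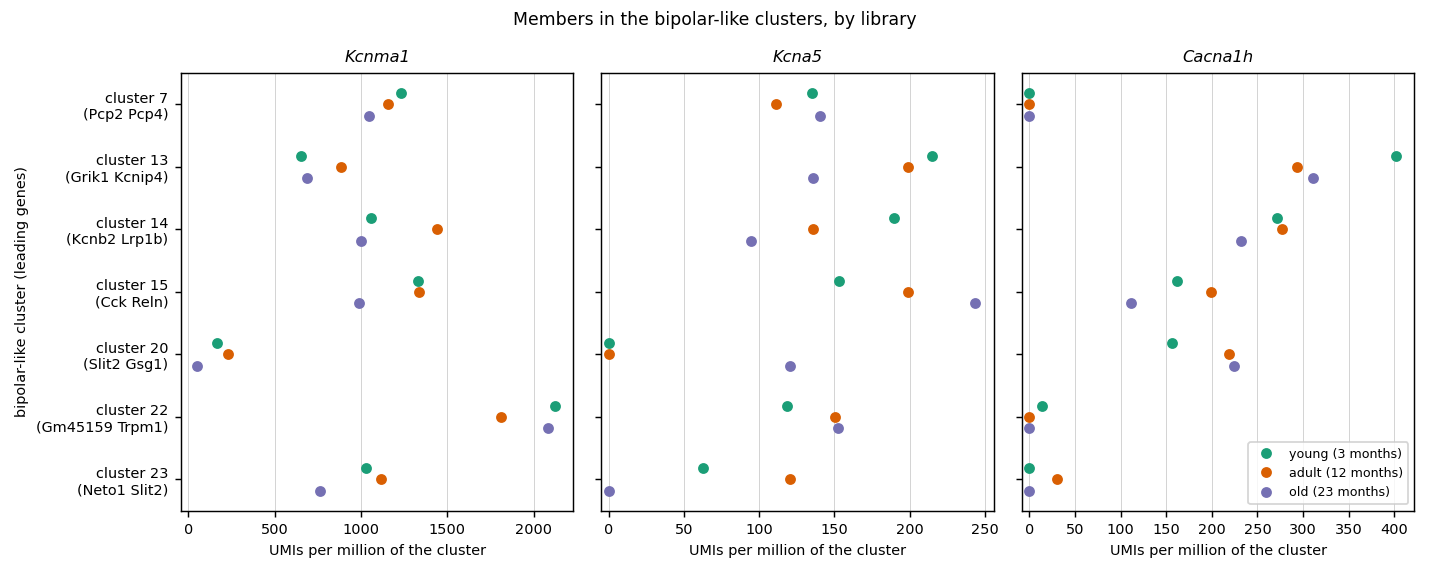
Level in CPM of the cluster on linear horizontal axes for Kcnma1, Kcna5 and Cacna1h in the 7 bipolar-like clusters, each named by its leading genes, with 1 point per library. Cacna1h is at 0 in the Pcp2-led cluster and at 402, 294 and 311 in the cluster led by Grik1, while Kcnma1 is above 1000 in the Pcp2-led cluster at each age.

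The genes whose levels most resembled each member were found over 24 points (8 classes in 3 libraries) among 11217 genes, by Pearson correlation of log2(CPM + 10). Points share libraries, and the values are descriptions. Fhl2 (0.986), Lama2 (0.985) and Abcc9 (0.983) were nearest to Kcnj8, and Hic1 (0.991), Lamc3 (0.987) and Kcnj8 (0.983) to Abcc9. Casq2 was nearest to Aspn, Cd248 and Adap2 (0.989 to 0.990), and Ano1 to Axl, Pcdh18 and Daam2 (0.983 to 0.986). Nearest to Cacna1c was Pakap (0.991), followed by Kcnmb1 (0.990) and Rasl12 (0.989). The likeness was lower for Cacna1h (Hspa12a 0.944, Prickle2 0.931, Ate1 0.912), Kcnma1 (Ralgapa2 0.963, Wscd2 0.962, Dusp4 0.960) and Kcna5 (Drd1 0.977, Kcnk3 0.937, Gm17634 0.930).

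A list of 47 related channel and calcium genes placed the members among their pathway. Between old and young pericyte-like cells, 2 of 17 tested related genes passed 1.5-fold upward (Kcnmb1 and Atp2b4, against 7.32% of all genes) and 2 downward (4.24%). The interval of Atp2b4 included 1. Kcnmb1 was higher in the old library (1.88, 1.24 to 2.88), whereas Itpr2, an inositol trisphosphate receptor of the calcium store, fell from 130 to 67.1 CPM (0.516, 0.336 to 0.775) and Cacna2d1, an auxiliary calcium channel subunit, from 116 to 71.2 CPM (0.614, 0.401 to 0.922). In smooth muscle-like cells 0 of 16 passed upward (9.06% of all genes) and 2 downward (4.91%), Kcnab1, a β subunit of Kv1 channels (0.659, 0.446 to 0.968), and Slc8a1, whose interval included 1. In endothelial-like cells Atp2a3, the calcium pump SERCA3, rose from 26.4 to 53.2 CPM (2.02, 1.56 to 2.63). Mrvi1 (0.514, 0.286 to 0.901, from 21 old and 37 young UMIs) and Pkd2 (0.624, 0.491 to 0.790) fell. Mrvi1 was past 4-fold higher in pericyte-like than in endothelial-like cells in all 3 libraries, and Pkd2 was in the old library. The pericyte markers in endothelial-like cells fell from 6.13 to 3.89% of their pericyte-like level, and their part in these falls was not tested.

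Atp2a2, the pump SERCA2, had the most UMIs of the related genes in both over the 3 libraries, 551 in pericyte-like and 801 in smooth muscle-like cells. Pln, phospholamban, the inhibitor of SERCA2, stood at 413, 330 and 398 CPM in smooth muscle-like cells and had 1, 0 and 0 UMIs in pericyte-like cells. Itpr1 and Atp2a3 were among the most counted related genes in pericyte-like cells, with 359 and 312 UMIs, as was Pkd2 with 283, and Mrvi1 (322) and Atp2b4 (272) in smooth muscle-like cells. Kcnj11 and Abcc8, the subunits of the ATP-sensitive channel of pancreatic β cells and neurons, had 0 UMIs in both mural classes in every library.

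**Figure D5:**
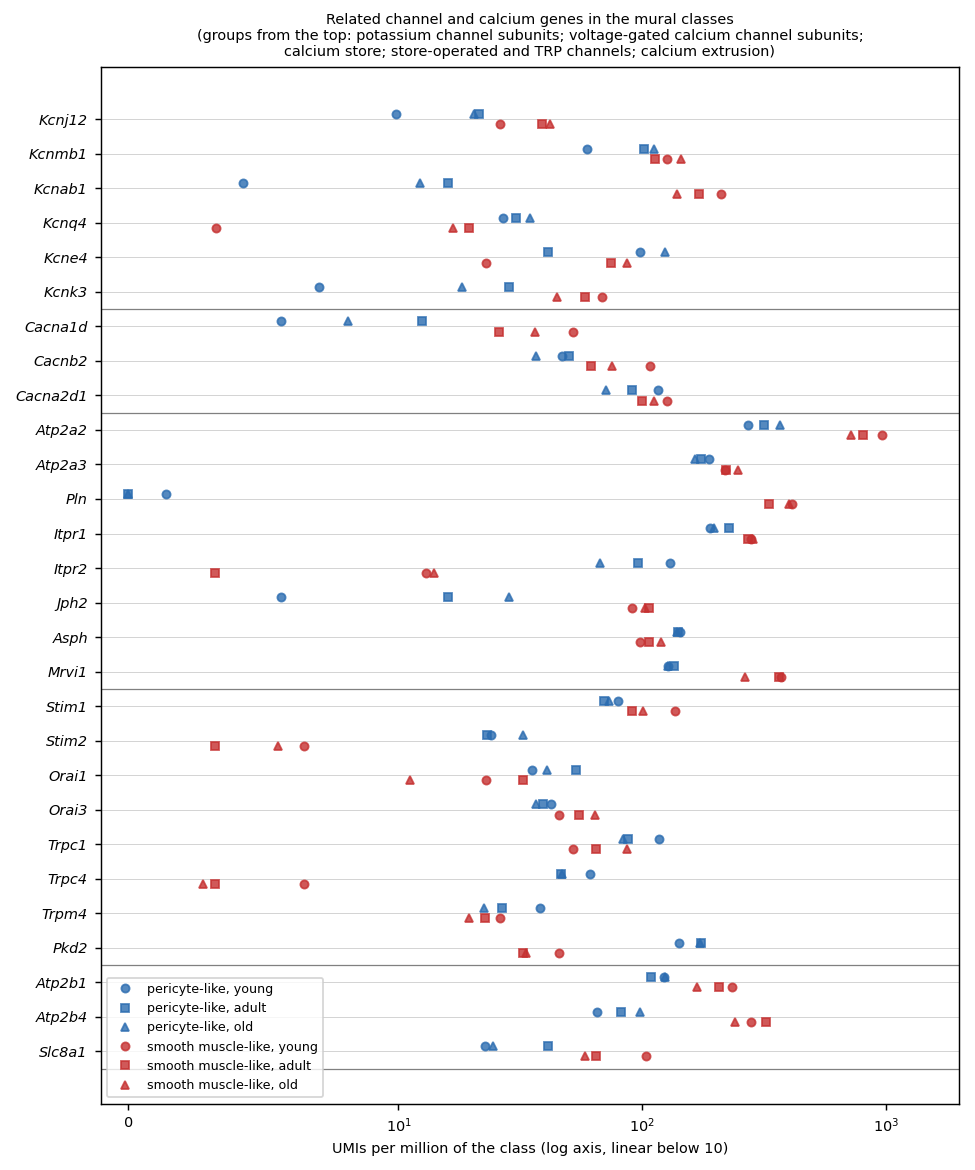
Levels of 28 related genes with at least 50 UMIs over the mural classes, in CPM on a logarithmic axis that is linear below 10, for pericyte-like (blue) and smooth muscle-like (red) cells with 1 symbol per library. Pln and Kcnab1 separate to the smooth muscle-like side at all 3 ages.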

How the data were processed

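Cells of CD31-enriched retina from 3 ages were profiled with 10x 3′ chemistry. The deposited matrices hold whole-number UMI counts per gene and droplet that the authors made with Cell Ranger 6.1.2 on mm10, per the labels; the gene annotation and cell calling settings are not given in the sources used here. Cells with 500 to 6000 genes and 1 to 20% mitochondrial UMIs were kept, and the 8, 17 and 12 droplets that Scrublet called (scanpy 1.11.5) were left out. The 3 libraries were joined by CCA integration and cells clustered (Seurat 5.3.0 under R 4.3.3) from 2000 features and 30 principal components at resolution 0.5. Clusters were named from fixed marker lists, with thresholds set after the clusters had been seen; classes with at least 30 cells in every library were compared. UMIs were summed per class and library. Intervals are exact Poisson (levels), conditional binomial (ratios) and Clopper-Pearson (shares), computed in scipy 1.17.1 and tested on simulated data. Counts of genes past 1.5-fold used genes with at least 50 UMIs over both libraries. Other ratios carry their UMIs or intervals, except some from alternative settings that are given without either. The members and gene lists were chosen with earlier results of these data known. Named genes were all members, related genes past 1.5-fold whose interval left out 1, the 5 related genes with most UMIs in each mural class and the 3 genes most like each member. Kcnj11, Abcc8, Atp2b4 and Slc8a1 were also named after their values were seen. Alternatives covered cell filters, doublets, resolution, class definition, thinning and scaling. Results for some related genes are not reported here.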

Additional observations from a re-analysis of the deposited data

Results flagged for a closer look

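The amacrine-like cells, inhibitory interneurons of the inner retina, were too few to enter the comparisons (18 young, 17 adult and 16 old cells), yet they held 3 of the 8 genes with more than 3 UMIs in each library. Kcnma1 stood at 544 CPM (407 to 711), 1261 CPM and 1071 CPM, from 53, 134 and 157 UMIs, so the young library was lower than both others beyond counting error. Cacna1h stood at 82.1, 56.5 and 54.6 CPM from 8, 6 and 8 UMIs, and Kcna5 at 41.0, 56.5 and 61.4 CPM from 4, 6 and 9 UMIs, in each case with overlapping intervals.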

How the results depend on the processing

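No paired analysis was possible because each age has 1 library. Values here are log2 ratios. For the pericyte-like to endothelial-like difference of Kcnj8 plus Abcc9 (5.29), the value was 5.51 with called doublets kept, 6.25 with the class taken from the markers of each cell, 5.52 with thinned cells, 5.53 with cells weighted equally, 4.10 with mixed clusters counted as pericyte-like and 8.71 without cells carrying markers of the other class. Old to young in pericyte-like cells, Kcnj8 plus Abcc9 (-0.04) came to 0.10 with doublets kept, -0.16 from the markers of each cell, -0.13 with median-of-ratios size factors, 0.075 with mixed clusters and -0.14 without the cross-marker cells, and the 8 members summed (-0.01) to 0.088, -0.092 and -0.10 in the first 3 of these. The smooth muscle-like sum (-0.31) came to -0.65 from the markers of each cell and -0.73 without cross-marker cells. Leaving those cells out turned the direction of Kcnj8 in pericyte-like cells (-0.22 against 0.25), of Abcc9 in endothelial-like cells (0.11 against -0.53), of Kcna5 in smooth muscle-like cells (0.13 against -0.86) and of Abcc9 per Kcnj8 UMI in pericyte-like cells (0.11 against -0.45); 12 old pericyte-like and 5 old smooth muscle-like cells then remain. The same setting moved Cacna1c from 0.56 to 1.88 and Cacna1h from 0.093 to -0.87 in pericyte-like cells, and Cacna1c from -0.060 to -1.42, Ano1 from -0.25 to -1.35 and Casq2 from -0.46 to -1.52 in smooth muscle-like cells. With thinned cells Cacna1c in smooth muscle-like cells moved the other way, to 0.89. With the class from the markers of each cell, Casq2 in smooth muscle-like cells came to -1.22 and Kcnj8 in endothelial-like cells to 0.87 (against -0.22, and 0.41 with thinned cells). In endothelial-like cells Kcnj8 and Casq2 have no UMIs left to give a value, and Casq2 turned from -0.60 to 0.24 with the class from the markers of each cell. The other 7 alternatives for Abcc9 per Kcnj8 UMI, chosen after seeing the data, gave -0.51 to -0.32. The share of genes past 1.5-fold between old and young was 21.5, 4.55 and 32.1% of pericyte-like genes with at least 20, at least 200 or at least 1 UMI, 24.9, 7.18 and 42.2% of smooth muscle-like genes and 12.8, 3.6 and 23.4% of endothelial-like genes.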
